A study of Mus musculus with 6 samples.

Results

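A set of 9 genes that specify and sustain macrophages were followed through 6 libraries of mouse bone marrow-derived macrophages, 3 given polystyrene micro- and nanoplastics (MNP) and 3 untreated controls. The 9 were picked by symbol for their known roles, with no threshold on measured values: 6 transcription factors (Spi1, Cebpa, Cebpb, Maf, Zeb2 and Klf4) and 3 growth factor receptor chains (Csf1r, Csf2ra and Csf2rb). All 9 were found among the 40213 genes counted, and all 9 passed the filter on low counts that left 12893 genes for testing. Marrow cells of C57BL/6 mice, of which the labels give neither age nor sex, had been grown for 4 days in medium with macrophage colony-stimulating factor (M-CSF, 25 ng/ml) and 10% serum. MNP cultures then received 50 µg of polystyrene particles for 24 h, with no particle size or culture volume stated, and control cultures were kept without them. Whether M-CSF stayed in the medium during those 24 h is not stated.

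PU.1, encoded by Spi1, is the transcription factor that opens the myeloid programme in blood cell precursors and keeps macrophage enhancers active. It works with the C/EBP factors, and c-MAF, encoded by Maf, opposes cell division in mature mouse macrophages. M-CSF acts through the receptor tyrosine kinase CSF1R, on which the survival of these cells depends. Granulocyte-macrophage colony-stimulating factor (GM-CSF) acts through a pair of chains, the specific alpha chain CSF2RA and the beta chain CSF2RB, which also serves the interleukin 3 and interleukin 5 receptors.

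Library totals ran from 21283713 to 22700499 counts in MNP and from 20262859 to 23042146 in controls, so that 3 counts were worth between 0.130 and 0.148 CPM (counts set to a common library size) before any further scaling. MNP sample 1 stood apart: a single noncoding gene, Gm26917, held 1.02% of its counts, and at most 0.444% in any other library. Control 1 stood apart in its number of genes with a count, 24062 against 18240 to 20935 in the other libraries. All 8 macrophage markers examined were expressed, with summed levels of 19480 to 20581 scaled CPM in MNP and 21770 to 22677 in controls. Of the 8, 4 fell (Adgre1, Lyz2, Mertk and Fcgr1), where 8.35% of all tested genes fell. Cd68 (means of 534 in MNP and 450 in controls, edgeR adjusted p = 0.0507), Cd14, Itgam and Mpeg1 were not called. Lyz2 made up most of the sum, with means of 13152 in MNP and 14779 in controls. Summed T cell markers were 3.48 to 4.83 scaled CPM in MNP and 15.0 to 19.2 in controls, with Cd3e at 0 in every library and Cd4 4.36-fold lower in MNP. Summed dendritic cell markers were 2.34 to 4.54 scaled CPM in MNP and 6.06 to 9.70 in controls, where Siglech and Dpp4 fell. Summed megakaryocyte markers were 0.812 to 2.34 in MNP and 5.30 to 6.71 in controls, where Itga2b fell, and summed endothelial markers 13.3 to 16.4 and 17.7 to 21.7, where Kdr fell. Summed osteoclast markers were 59.2 to 62.8 scaled CPM in MNP and 30.7 to 47.4 in controls, where Ctsk rose 1.72-fold. Ctsk alone made up most of that sum, with means of 50.4 in MNP and 29.3 in controls. Acp5 was not called (means of 10.1 and 8.59, edgeR adjusted p = 0.269), and Calcr and Oscar were too low to test. Likewise, Kdr made up most of the endothelial sum (means of 13.1 in MNP and 18.1 in controls) and Cd4 most of the T cell sum (3.94 and 17.1). Summed B cell markers reached at most 0.580 scaled CPM in MNP and 1.61 in controls, and fibroblast markers 0.580 and 1.43. Of 9 neutrophil and granulocyte precursor markers, 8 were tested and 5 fell, where 8.35% of all tested genes fell. The sums of the 9 were 133 to 153 scaled CPM in MNP and 183 to 272 in controls. The part of these marker genes in the members' values was not tested. In such bulk cultures, fewer cells of a type and less RNA per cell cannot be told apart.

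Of the 9 members, 2 changed. Maf fell and Csf2ra rose, while the core factors Spi1 and Cebpa, the abundant Zeb2 and the M-CSF receptor Csf1r did not pass the test. A change was called by edgeR's quasi-likelihood test at a Benjamini-Hochberg adjusted p under 0.05 over all tested genes, of which 17.5% were called, 9.11% higher and 8.35% lower in MNP. The members' share, 2 of 9, is close to that background, and their median log2 fold change was -0.07, against -0.01 over all tested genes. With library totals as the only scaling, 757 genes were higher and 1941 lower in MNP, against 1174 and 1076 with TMM, and among the members 0 were higher and 2 lower, Maf and Csf2rb. For 4 of the 9 members the libraries of the groups did not overlap, 1 higher (Csf2ra) and 3 lower (Maf, Klf4 and Spi1) in MNP. The groups did not overlap for 34.6% of all tested genes, with 17.2% higher and 17.4% lower in MNP.

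**Figure D1:**
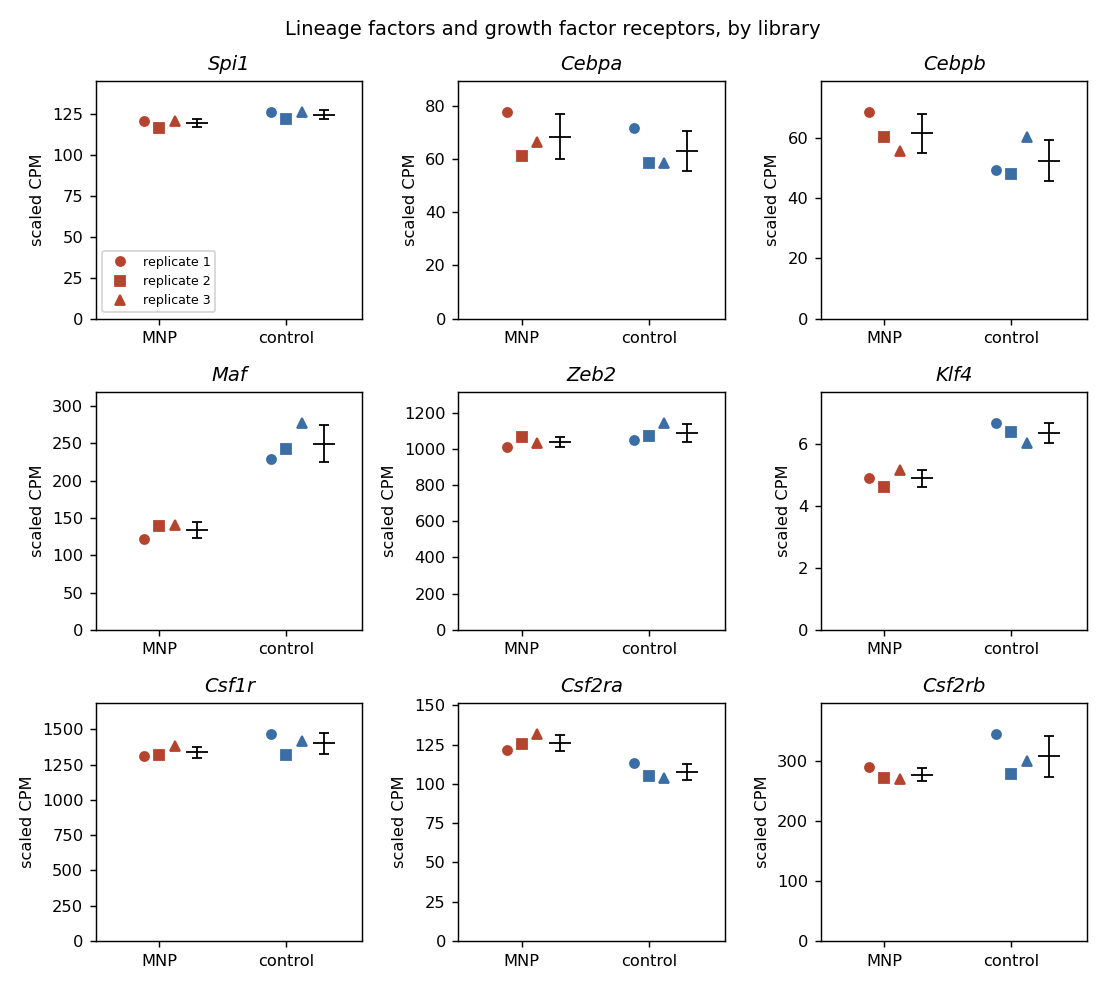
Scaled CPM (vertical axes, from 0) of the 9 members in each library, with circles, squares and triangles for replicates 1 to 3 and black bars for the mean ± SD of 3 libraries. Maf lies between 122 and 141 in MNP and between 229 and 277 in controls, while the other members differ far less.

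Compared per kilobase of the longest annotated transcript, the order of the members was almost the same in both groups. Csf1r led with 284 ± 8.34 scaled CPM per kilobase in MNP and 298 ± 15.8 in controls (SD, n = 3 each), above 98.6% and 98.7% of tested genes with a known length. Zeb2 came next with 114 ± 3.08 in MNP and 119 ± 5.37 in controls. Spi1, Csf2rb and Csf2ra followed, between 55.4 and 58.7 in MNP and between 47.2 and 62.7 in controls. In MNP the library ranges of Spi1 and Csf2rb overlapped, as did those of Csf2rb and Csf2ra. In controls those of Csf2rb and Spi1 overlapped, and those of Maf and Cebpb.

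Maf changed its place in that order. It stood eighth in MNP, at 21.0 ± 1.64 scaled CPM per kilobase and below both Cebpb (40.9 ± 4.34) and Cebpa (26.0 ± 3.22). In controls it stood sixth, at 39.2 ± 3.91 and above Cebpb (34.9 ± 4.45) and Cebpa (23.9 ± 2.87). Klf4 was lowest by a wide margin, at 1.61 ± 0.0928 in MNP and 2.10 ± 0.106 in controls, above 21.4% and 24.9% of tested genes. With the median transcript length in place of the longest, Spi1 and Csf2rb exchanged places in MNP and the order was otherwise the same, though the levels themselves shifted (Csf1r to 951 in MNP and 996 in controls).

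**Figure D2:**
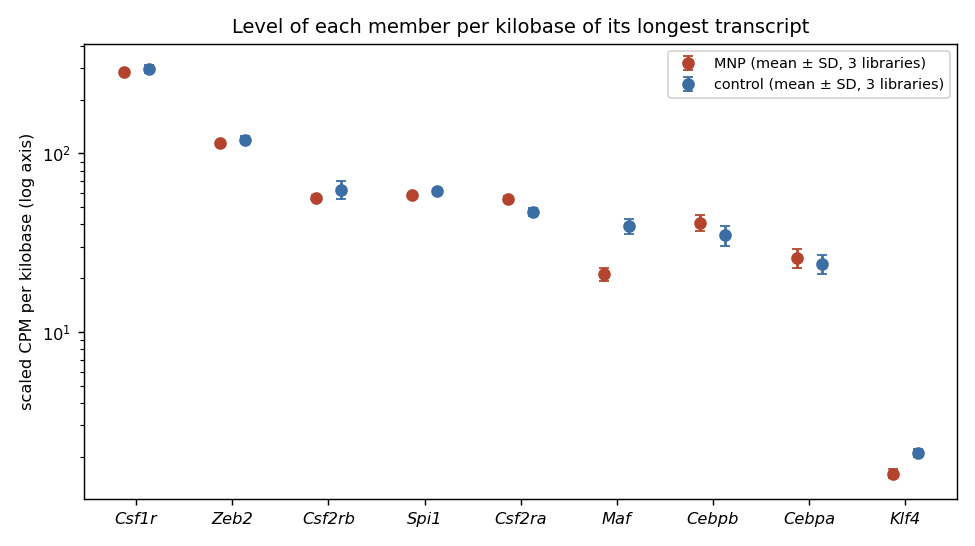
Level of each member as scaled CPM per kilobase of its longest annotated transcript (log axis), as mean ± SD of 3 MNP and 3 control libraries. Csf1r and Zeb2 lead in both groups, Klf4 is lowest, and Maf drops below Cebpb and Cebpa in MNP.

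Among the lineage factors, Maf, which encodes c-MAF, had 122, 139 and 141 scaled CPM in MNP samples 1 to 3, against 229, 242 and 277 in controls 1 to 3. Every MNP library lay below every control. The means were 134 ± 10.4 scaled CPM in MNP and 249 ± 24.9 in controls (SD, n = 3 each), a level 1.86-fold lower in MNP, with a log2 fold change of -0.90 ± 0.08 (SE) and an edgeR adjusted p of 2.86e-06. Without MNP sample 1 the log2 fold change was -0.83 (edgeR adjusted p = 2.80e-05), and over all 14 alternatives it ranged from -0.99 to -0.81.

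Genes linked to the activity of MAF factors in mouse macrophages were lower along with Maf. Of 11 such genes 10 were tested, of which 8 fell and 0 rose, where 8.35% of all tested genes fell, and their median log2 fold change was -0.75. Folr2, a folate receptor of resident macrophages, had 33.4, 30.0 and 38.1 scaled CPM in MNP and 86.0, 77.6 and 76.5 in controls (2.37-fold lower, edgeR adjusted p = 5.26e-07). The mannose receptor Mrc1 averaged 268 ± 25.1 scaled CPM in MNP and 511 ± 28.5 in controls (1.91-fold lower, edgeR adjusted p = 8.89e-07). The complement chain C1qa was 1.52-fold lower and Mertk, a receptor for dying cells, 1.40-fold lower.

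The remaining called genes of that list, named after their values were seen, were C1qb, C1qc, Il10 and Timd4. Il10 had 22, 20 and 26 counts in MNP and 75, 62 and 73 in controls, and Timd4 had 0, 0 and 5 counts in MNP and 25, 36 and 20 in controls. The tested genes that were not called were the haemoglobin scavenger receptor Cd163, with 19, 29 and 5 counts in MNP and 23, 42 and 40 in controls, and Cd5l, a secreted macrophage protein. Cd5l averaged 49.0 ± 10.5 scaled CPM in MNP and 48.4 ± 8.44 in controls (edgeR adjusted p = 0.951). The count of 8 lower stayed at 8 when any library was left out and under each scaling, and was 6 with the stricter filter, which tests fewer weakly expressed genes.

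**Figure D3:**
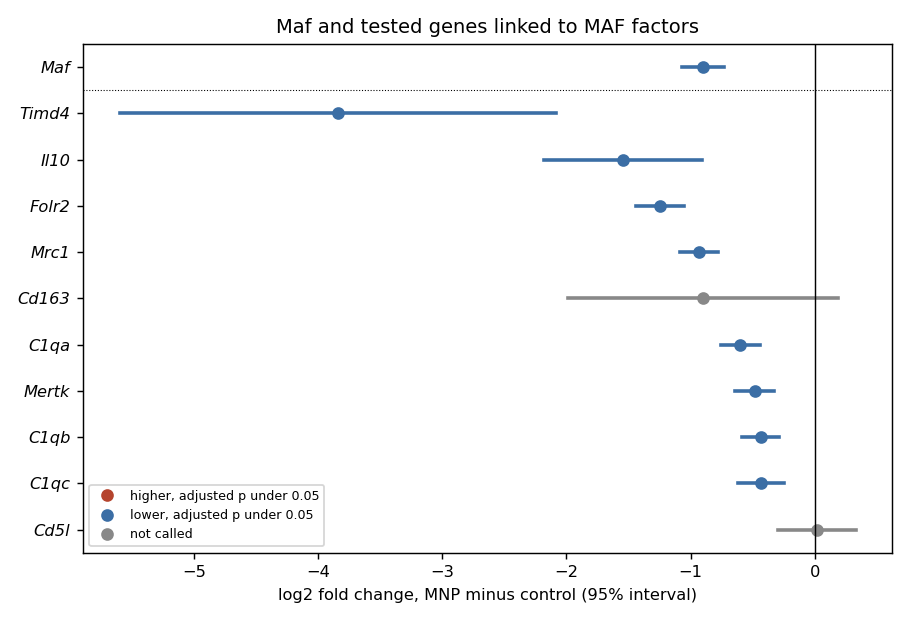
Log2 fold change, MNP minus control, with 95% intervals from edgeR, for Maf (above the dotted line) and the 10 tested genes linked to MAF factors (below). Of the 10, 8 are lower in MNP and Cd5l lies at 0.02, while the size for Timd4 is uncertain because 2 MNP libraries had 0 counts.

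Spi1 had 121, 116 and 121 scaled CPM in MNP samples 1 to 3, against 126, 122 and 126 in controls 1 to 3. The MNP libraries all lay below the controls, but by a small margin (log2 fold change -0.06, 95% interval -0.18 to 0.05, edgeR adjusted p = 0.467). A fall in Spi1 larger than 0.18 on the log2 scale lies outside that interval, which holds for TMM scaling only. With library totals alone the log2 fold change of Spi1 was -0.15 (edgeR adjusted p = 0.0534). Genes that PU.1 binds or drives did not move one way. All 22 were tested, among them the members Csf1r and Csf2ra. Of the 22, 4 rose and 6 fell, where 9.11% of all tested genes rose and 8.35% fell. The median log2 fold change of the 22 was -0.02, and 0.02 with no filter.

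Among these PU.1 genes, the integrin beta chain Itgb2 averaged 1771 ± 90.5 scaled CPM in MNP and 1306 ± 116 in controls (1.36-fold higher, edgeR adjusted p = 5.83e-04). Cybb, the membrane subunit of the phagocyte oxidase, averaged 1632 ± 72.7 scaled CPM in MNP and 2158 ± 93.0 in controls (1.32-fold lower). The scavenger receptor Msr1 was 1.31-fold lower and the IgG receptor Fcgr1 1.42-fold lower. With library totals alone, 2 of the 22 rose and 8 fell.

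Cebpa, which encodes C/EBP alpha and is needed to form granulocyte and macrophage precursors, had 77.6, 61.0 and 66.3 scaled CPM in MNP and 71.6, 58.5 and 58.5 in controls. The groups overlapped (log2 fold change 0.12, 95% interval -0.09 to 0.33, edgeR adjusted p = 0.457). Cebpb, which encodes C/EBP beta, a factor induced in activated macrophages, had 68.6, 60.2 and 55.8 scaled CPM in MNP and 49.3, 48.0 and 60.2 in controls. Control 3 lay within the MNP range, and Cebpb was not called (log2 fold change 0.23 ± 0.10 SE, 95% interval 0.02 to 0.44, edgeR adjusted p = 0.137). It was called without control 3 (log2 fold change 0.35, edgeR adjusted p = 0.0262) and with no filter on low counts (0.26, edgeR adjusted p = 0.0169).

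The ratio of Cebpb to Cebpa counts was 0.885, 0.987 and 0.841 in MNP and 0.689, 0.820 and 1.03 in controls, so that the groups overlapped (two-sided exact permutation p = 0.6). Of 14 genes that C/EBP alpha or beta drive in myeloid cells, 9 were tested. Of these, 5 fell and 0 rose, where 8.35% of all tested genes fell, and the median log2 fold change was -0.39. The 5 include Csf3r, described below, and Lcn2, whose groups overlapped (edgeR adjusted p = 0.0275). Mpo, the granule enzyme myeloperoxidase, averaged 7.72 ± 0.953 scaled CPM in MNP and 13.5 ± 1.71 in controls (1.75-fold lower, edgeR adjusted p = 0.00125). The interleukin 6 receptor Il6ra was 1.32-fold lower, and the list shares Msr1 with the PU.1 genes. Only 3 fell without MNP sample 2 and without control 2. Mpo is also a granulocyte precursor marker. So is Elane of this list, which was not called (means of 2.39 scaled CPM in MNP and 2.01 in controls, edgeR adjusted p = 0.632). The summed markers of neutrophils and granulocyte precursors were lower in MNP, as given above. Their part in these values was not tested.

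Zeb2, a zinc finger repressor that maintains the identity of tissue macrophages in mice, had 1010, 1066 and 1034 scaled CPM in MNP and 1047, 1073 and 1142 in controls. The groups overlapped (log2 fold change -0.07, 95% interval -0.19 to 0.05, edgeR adjusted p = 0.448). Zeb2os, a noncoding gene that overlaps Zeb2 on the opposite strand, had 8.55, 9.42 and 9.75 scaled CPM in MNP and 14.9, 11.5 and 13.7 in controls. Each MNP library lay below each control, and Zeb2os fell 1.44-fold, with a log2 fold change of -0.53 ± 0.13 (SE) and an edgeR adjusted p of 0.0118. Its call was lost without MNP sample 1 (edgeR adjusted p = 0.0532). No strand setting for the counting is stated, so reads of Zeb2 and Zeb2os cannot be told apart where they overlap. Opposite-strand genes also overlap Cebpa, Cebpb, Maf and Csf1r in GENCODE annotation.

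Klf4, a factor of monocyte differentiation, had 4.88, 4.60 and 5.16 scaled CPM in MNP and 6.66, 6.39 and 6.02 in controls. These were 101, 102 and 108 counts in MNP and 139, 147 and 142 in controls. The groups did not overlap, but Klf4 was not called (log2 fold change -0.38 ± 0.16 SE, 95% interval -0.72 to -0.04, edgeR adjusted p = 0.123, unadjusted p = 0.0316). Its interval was the widest of the 9 members, at the lowest depth.

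Csf1r, the M-CSF receptor, had 1312, 1317 and 1382 scaled CPM in MNP and 1465, 1319 and 1417 in controls. The groups overlapped, and the means were 1337 ± 39.2 in MNP and 1400 ± 74.2 in controls (SD, n = 3 each, log2 fold change -0.07 ± 0.06 SE, 95% interval -0.19 to 0.06, edgeR adjusted p = 0.485). No alternative called Csf1r, and its smallest adjusted p was 0.0616, with library totals alone. Its ligand Csf1, M-CSF itself, rose at a low level to 13.7, 14.3 and 12.6 scaled CPM in MNP, against 9.20, 9.74 and 11.7 in controls (1.32-fold higher, edgeR adjusted p = 0.0398). The Csf1 call was lost without any single library other than control 3 (edgeR adjusted p from 0.0674 to 0.144), with DESeq2 and with library totals alone.

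The promoter sequence of Csf2ra, the member that rose, is shown to give the letters of the factor families described above near its start. From a table of RefSeq start sites, promoter windows of 250 bases before to 50 after the start were used for 5 of the 9 members. Member windows on 1 chromosome were left out of the search, and no window was used for Spi1, Maf, Csf1r and Csf2rb. The Csf2ra window lies at chr19:61228369-61228668 of GRCm38.p6, on the minus strand, and capitals mark the matches to PU.1 (GAGGAA) and C/EBP (TTNNGNAA) letters on either strand.
Csf2ra promoter: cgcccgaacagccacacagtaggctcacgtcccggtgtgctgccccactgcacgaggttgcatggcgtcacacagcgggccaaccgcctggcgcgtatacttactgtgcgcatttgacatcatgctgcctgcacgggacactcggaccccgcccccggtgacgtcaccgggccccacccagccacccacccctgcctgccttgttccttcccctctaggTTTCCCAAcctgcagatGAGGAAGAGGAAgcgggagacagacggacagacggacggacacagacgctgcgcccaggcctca
The C/EBP letters begin 31 bases before the start. The PU.1 letters occur at 14 and 8 bases before it, end to end and without overlap. At least 2 PU.1 matches were found in 4.82% of 32817 promoter windows of this length, and a PU.1 match together with a C/EBP match in 11.8%. Each of the 4 Zeb2 windows held 1 PU.1 match, and 1 of them also a C/EBP match, although Zeb2 was not called. Of these windows, 2 overlap and share the same PU.1 match. A PU.1 match was found in 28.3% of all windows and a C/EBP match in 40.7%. The windows of Cebpa and Klf4 held none of the 7 motifs searched, like 15.4% of all windows. Such matches describe letters, not binding.

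Csf2ra, the alpha chain that gives the GM-CSF receptor its specificity, had 122, 125 and 132 scaled CPM in MNP samples 1 to 3, against 113, 105 and 104 in controls 1 to 3. Every MNP library lay above every control. The means were 126 ± 5.01 scaled CPM in MNP and 107 ± 5.22 in controls (SD, n = 3 each), 1.18-fold higher in MNP, with a log2 fold change of 0.23 ± 0.06 (SE) and an edgeR adjusted p of 0.0149. The call was lost without MNP sample 2 (edgeR adjusted p = 0.0544), MNP sample 3 (0.0699) or control 2 (0.0569), and with library totals as the only scaling (0.0975). It held without MNP sample 1 (edgeR adjusted p = 0.0207).

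The count of Csf1r over that of Csf2ra within a library was 10.8, 10.5 and 10.5 in MNP and 12.9, 12.6 and 13.7 in controls. Each MNP ratio lay below each control ratio. The log2 ratio averaged 3.41 ± 0.02 in MNP and 3.70 ± 0.06 in controls, a difference of -0.30 (SD, n = 3 each, two-sided exact permutation p = 0.1, the smallest that 3 against 3 libraries allow, and 0.2 after adjustment over the 4 ratios computed).

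Csf2rb, the shared beta chain, had 290, 271 and 270 scaled CPM in MNP and 344, 278 and 300 in controls. MNP sample 1 lay above control 2, so the groups overlapped (log2 fold change -0.15 ± 0.07 SE, 95% interval -0.31 to 0.01, edgeR adjusted p = 0.189). With library totals alone it was called lower (log2 fold change -0.24, edgeR adjusted p = 0.0346), while without control 1 the log2 fold change was -0.056 (edgeR adjusted p = 0.601). Mice carry a close copy, Csf2rb2, which encodes a beta chain used by interleukin 3 alone, and 18.4% of the 50-base windows of the longest Csf2rb transcript occur in it. How shared reads were assigned is not stated, so the division between the copies is uncertain.

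Csf2rb2 had 210, 213 and 171 scaled CPM in MNP and 224, 183 and 190 in controls, with overlapping groups (log2 fold change -0.01, 95% interval -0.20 to 0.19, edgeR adjusted p = 0.976). The ratio of Csf2rb to Csf2rb2 counts was 1.38, 1.27 and 1.58 in MNP and 1.54, 1.52 and 1.58 in controls (two-sided exact permutation p = 0.3). Summed to a single gene, the copies had 475 ± 30.5 scaled CPM in MNP and 506 ± 55.5 in controls (SD, n = 3 each, log2 fold change -0.09, 95% interval -0.26 to 0.08, edgeR adjusted p = 0.486).

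**Figure D4:**
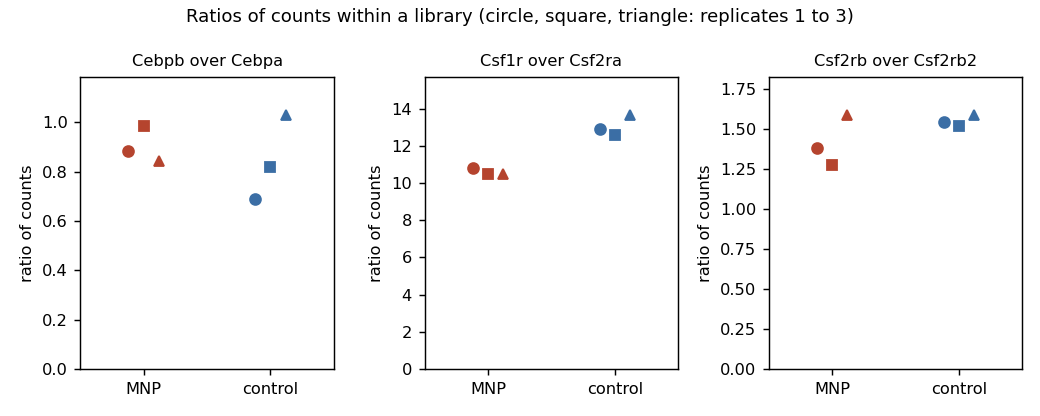
Count of the first gene over that of the second within each library (vertical axes, from 0), for 3 pairs, with MNP at left and control at right. Csf1r over Csf2ra is lower in all 3 MNP libraries, while the other pairs overlap.

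**Figure D5:**
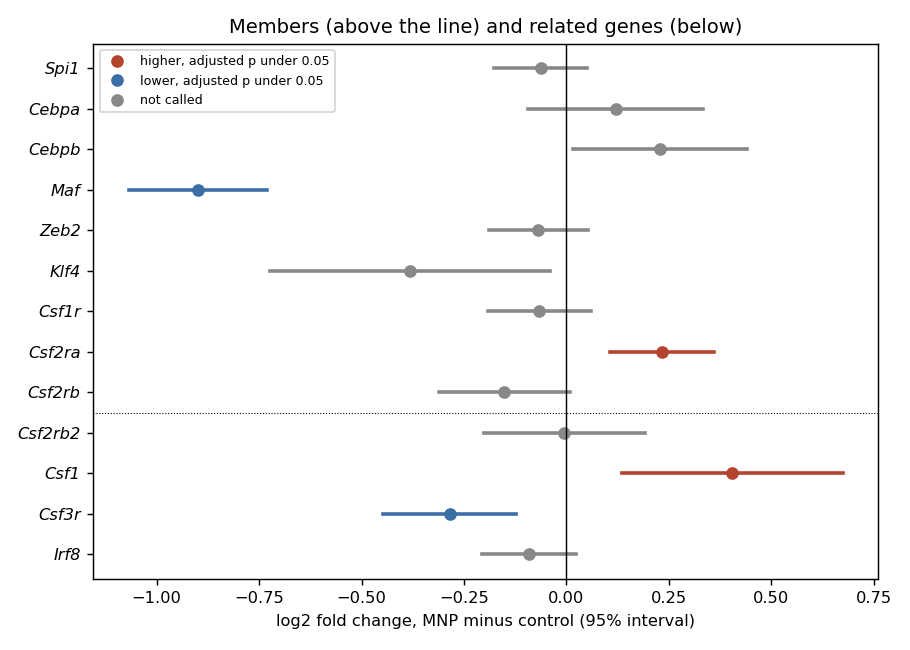
Log2 fold change, MNP minus control, with 95% intervals from edgeR, for the 9 members (above the dotted line) and 4 related genes (below). Maf (-0.90) and Csf2ra (0.23) are the called members, and Csf1 (0.41) and Csf3r (-0.28) are called among the related genes.

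Ligands and other receptor chains of the family were mostly too low to test. Of 14, 6 were tested, of which Csf1 and Kit rose and Csf3r fell, where 9.11% of all tested genes rose and 8.35% fell. Kit, the stem cell factor receptor and a relative of CSF1R, averaged 16.8 ± 1.82 scaled CPM in MNP and 9.90 ± 1.48 in controls (1.70-fold higher, edgeR adjusted p = 0.00120). Kit was also in the marker lists of mast cells and progenitors. Of the other progenitor markers, Cd34 fell, and Flt3 and Myb were not called. Csf3r, the granulocyte colony-stimulating factor receptor, had 30.8, 29.2 and 30.1 scaled CPM in MNP and 37.4, 36.5 and 35.9 in controls (1.22-fold lower, edgeR adjusted p = 0.0184). With DESeq2, and without MNP sample 2, MNP sample 3 or control 2, Csf1 and Csf3r lost their calls and Kit kept its own.

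Signalling genes downstream of CSF1R split. Of 31 tested, 5 rose and 6 fell, where 9.11% of all tested genes rose and 8.35% fell. The median log2 fold change of the 31 was 0.03, and -0.06 with library totals alone, where 2 rose and 10 fell. Gab2, an adaptor for phosphatidylinositol 3-kinase, averaged 81.8 scaled CPM in MNP and 107 in controls (1.31-fold lower). Ptk2b, a focal adhesion kinase relative, was 1.25-fold higher, and Ets2, a transcription factor phosphorylated in the M-CSF response, 1.44-fold higher. Without MNP sample 3, 2 rose and 5 fell.

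Of 10 tested genes downstream of the GM-CSF receptor, 1 rose and 2 fell, where 9.11% of all tested genes rose and 8.35% fell. The kinase Jak2, which docks on the beta chain, averaged 70.2 ± 0.869 scaled CPM in MNP and 84.6 ± 2.44 in controls (1.21-fold lower, edgeR adjusted p = 0.00643). The survival factor Mcl1 was 1.22-fold lower and the adaptor Ywhaz 1.23-fold higher. With library totals alone 1 rose and 4 fell.

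Other macrophage and myeloid transcription factors moved in both directions. Of 31 tested, 5 rose and 8 fell, where 9.11% of all tested genes rose and 8.35% fell. The median log2 fold change of the 31 was -0.09, and 0.01 under the stricter filter. Bhlhe41, a repressor that, with its relative Bhlhe40, maintains alveolar macrophages in mice, averaged 181 ± 2.53 scaled CPM in MNP and 90.4 ± 7.24 in controls (2.00-fold higher, edgeR adjusted p = 1.41e-07). Irf4, a factor of alternative activation, averaged 2.81 ± 0.807 in MNP and 8.37 ± 1.39 in controls (2.97-fold lower, edgeR adjusted p = 2.46e-04), and Nr1h3, the lipid sensor LXR alpha, was 1.85-fold lower. Irf8, a partner of PU.1, had 134, 127 and 134 scaled CPM in MNP and 143, 141 and 137 in controls. The groups did not overlap, but Irf8 was not called (edgeR adjusted p = 0.273). Of 14 alternatives, 1 called Irf8 lower. Without MNP sample 3, 3 of the 31 rose and 5 fell, and with library totals alone 3 rose and 10 fell.

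Surface genes of monocytes and tissue macrophages fell or were not called. Of 15 tested, 8 fell and 0 rose, where 8.35% of all tested genes fell, and the median log2 fold change was -0.48. Among the 8 are Adgre1 and Fcgr1, shared with the PU.1 genes, and Mertk, shared with the genes linked to MAF factors. All of these are also macrophage markers. The integrin Itgal averaged 14.3 ± 1.24 scaled CPM in MNP and 43.0 ± 8.36 in controls (3.00-fold lower, edgeR adjusted p = 1.74e-06). Siglec1, a sialic acid lectin, was 1.82-fold lower, and Ccr2, which draws monocytes towards chemokines, 1.58-fold lower. Leaving out any single library left 8 lower. Without control 3, with no filter and with the replicate block, 1 gene was also called higher. Cx3cr1 lay higher in every MNP library than in every control, with means of 32.2 ± 2.24 and 22.9 ± 8.57 scaled CPM, but was not called (edgeR adjusted p = 0.126).

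Over the 6 libraries, the genes whose log2 CPM followed Maf most closely were Ctsc, the cathepsin that activates granule proteases (Pearson r = 0.999), Arhgap12 (0.998) and Klf3 (0.997). Those closest to Csf2ra were Abhd2 (0.998), Gm45407 (0.995) and Naip2 (0.995). These were taken from 9542 tested genes that averaged 5 CPM or more. The 6 points are 2 groups of 3 libraries, and r exceeded 0.95 for 280 genes with Maf and for 141 with Csf2ra. Naip2 belongs to a family of near-identical copies, so its count is uncertain.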

How the data were processed

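RNA was sequenced as 6 CORALL libraries, per the labels. What the authors deposited for each library is a table of raw counts, whole numbers listed by gene symbol. The submitters' processing notes name GRCm39 as the build and list GATK, Salmon, STAR and fastp, without saying what each did. Neither annotation nor strand setting nor use of molecular identifiers is given in the sources used here.

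Groups came from sample titles. No label states whether replicates came from different cultures or mice; the p-values reflect the variation among these libraries alone, which may be technical. Replicate pairs differed by a chi-square per degree of freedom of at least 6.69, so none was treated as a duplicate.

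Counts were tested with edgeR 4.0.16 (R 4.3.3): TMM factors, default expression filter, quasi-likelihood F test, Benjamini-Hochberg adjustment over all tested genes, and SE from the fold change and its F value (log2 change divided by the root of F). Scaled CPM use the TMM-scaled library size. Ratios used log2 of (count + 0.5). The steps were tested on simulated counts. Alternatives were RLE, upper-quartile and total scaling, no filter, a stricter filter (5 CPM in 3 libraries), a replicate block, DESeq2 1.42.0, limma-voom 3.58.1, and omission of each library. Summing Csf2rb and Csf2rb2 was added after seeing the data.

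Members, gene lists and markers were chosen with earlier results of these data known, so counts over lists are descriptions. Named genes are the members, Irf8, Csf1, Csf2rb2 and Csf3r, up to 4 called genes of each list with the smallest p, and up to 3 genes most like each called member; some genes these rules name, and 1 of the 4 ratios, are not reported here. Other genes, such as Zeb2os and the marker genes, were named after their values were seen. Transcript lengths (92.0% of tested genes) and overlaps came from GENCODE annotation of an older build, matched by symbol, and promoters from RefSeq tables of GRCm38.p6. Coordinates printed are of that build, not of the counts' build.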

Additional observations from a re-analysis of the deposited data

How the results depend on the processing

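Maf was called lower under each of 14 alternatives, and Spi1, Cebpa, Zeb2, Klf4 and Csf1r under none. All members kept the sign of their log2 fold change under every alternative. With library totals alone, Csf2ra lost its call (log2 fold change 0.14) and Csf2rb gained one (-0.24), and 5 genes downstream of the GM-CSF receptor were called in place of 3. Cebpb gained a call with no filter (0.26). With DESeq2, 1 gene of the ligand and receptor list was called in place of 3. Leaving out each library gave 1471 to 2245 called genes in place of 2250, 1 to 3 called members in place of 2, and log2 fold changes of 0.21 to 0.28 for Csf2ra, 0.15 to 0.35 for Cebpb and -0.22 to -0.056 for Csf2rb. It gave 8 to 14 called transcription factors, 1 to 3 ligands and receptors, 7 to 12 genes of CSF1R signalling and 3 to 6 C/EBP genes. The difference in the log2 ratio of Cebpb to Cebpa ranged from -0.026 (without control 1, reversed) to 0.26. The alternatives were fitted over all genes and examined for 31 of the other called genes (list and related genes, and Zeb2os). Of these, 28 stayed called wherever tested, and Csf1, Csf3r and Zeb2os did not. Lcn2, the remaining cell type markers and the genes most like Maf and Csf2ra were not examined under the alternatives. Uncalled genes near 0 changed sign: Csf2rb2 with no filter (0.029), with DESeq2 (0.0070) and without MNP 3 or control 1 (-0.059 to 0.096 over the omissions), and Cd5l with library totals (-0.073) and without MNP 3, control 2 or control 3 (-0.13 to 0.18 over the omissions). The cause of these shifts was not tested. Whether the replicate numbers pair the libraries is not stated. Correlations of same-numbered deviations were 0.12, 0.01 and -0.08, and those of other pairs ranged from -0.14 to 0.15. Deviations from a mean of 3 libraries are not independent, so these values cannot decide it. With the replicate number as a block, 1432 genes were higher and 1254 lower in MNP (2686 in all), 2 members were called, and Maf and Csf2ra kept their calls. Per-kilobase levels moved with the median transcript length in 14 of 18 cases. The depth limits Klf4 most, at 101 to 147 counts a library.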
